A study of Vigna radiata with 9 samples.

Results

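The comparison of chilled, uniconazole-sprayed mung bean leaves (LT+S) with unchilled, water-sprayed leaves (CK) was examined across all genes. It rests on 6 of the 9 mung bean libraries, 3 of LT+S and 3 of CK, and on 19304 genes that passed the filter on low counts, of 26966 in the count table. At the onset of flowering LT+S plants received a spray of 50 mg/L uniconazole, were moved 36 h later to a phytotron at 15 °C and were sampled after 4 days there. LT plants received water in place of uniconazole and the same cold. CK plants received water and stayed in the natural environment. LT+S therefore differed from CK in temperature, in the compound and in the place of growth, and the parts of these in a difference cannot be told apart. The LT libraries, which share the cold and the place with LT+S, are given beside it where they bear on a value. Each library came from a separate pot. The labels number the compound S3305, S3306 and S3307 in the LT+S libraries, whereas the methods give S3307, so these libraries were taken as replicates of 1 treatment.

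Mung bean is a warm-season legume whose leaves are damaged by chilling. Cold slows the enzymes that fix CO2 more than it slows the capture of light, and chilled leaves commonly reduce the synthesis of antenna proteins, store or export sugar differently, and alter membrane lipids, protein turnover and hormone balance. Uniconazole is a triazole that binds cytochrome P450 enzymes. It blocks ent-kaurene oxidase, an early enzyme of gibberellin synthesis, and the abscisic acid 8'-hydroxylases that inactivate abscisic acid, and it is used to keep crops short and more tolerant of stress.

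Total counts were 20750500 to 21472254 in LT+S and 19561896 to 21617340 in CK. The 10 genes with the most counts held 5.67 to 6.59% of a library in LT+S and 13.5 to 13.8% in CK. The first principal component of the 6 libraries held 69.5% of the variance and separated LT+S from CK, while the second held 19.9% and lay mostly among the CK libraries, with CK 1 and CK 3 at its ends. Levels below are CPM, library counts scaled to a common total and then by TMM, and allow comparison of a gene between libraries, not of different genes with each other. A gene was called when its p from edgeR, adjusted over all genes tested, was below 0.05, and fold changes are LT+S over CK on the log2 scale.

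Large changes ran in both directions. Of the genes tested, 3811 were higher in LT+S (19.7%) and 4231 were lower (21.9%), 41.7% in all. These percentages are the background against which the gene groups below can be read, together with the median log2 fold change over all genes of 0.01. A change of more than 2-fold was found for 1869 higher genes (9.68%) and 2117 lower genes (11%), and a change of more than 16-fold for 157 higher and 81 lower genes. The 3 LT+S libraries lay wholly above the 3 CK libraries for 28.2% of genes and wholly below them for 27.4%.

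The direction of the calls varied with expression level. Among the 1883 genes with a mean of at least 100 CPM over the 6 libraries, 804 were lower in LT+S (42.7%) and 312 were higher (16.6%). Among the 1583 genes with a mean under 1 CPM, 86 were lower (5.43%) and 313 were higher (19.8%). The filter on low counts ran over all 9 libraries, in which LT and LT+S together outnumber CK. Weak genes high in the cold could therefore pass it more easily than weak genes high in CK. Of the genes tested, 22 had 0 counts in all CK libraries and 1 had 0 counts in all LT+S libraries. The direction under 1 CPM is thus a description only. The called genes were chosen by this contrast, so their share of the counts is a description only. The 4231 lower genes held 28.8, 30 and 30.4% of the counts in LT+S, against 56.1, 58.1 and 61.2% in CK. With libraries scaled by their totals alone, without TMM, the median over all genes moved to 0.50 and the calls became 8979 higher and 1997 lower, so that 81.8% of calls were higher, against 47.4% with TMM. Changes are therefore reported relative to the typical gene of each library.

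**Figure D1:**
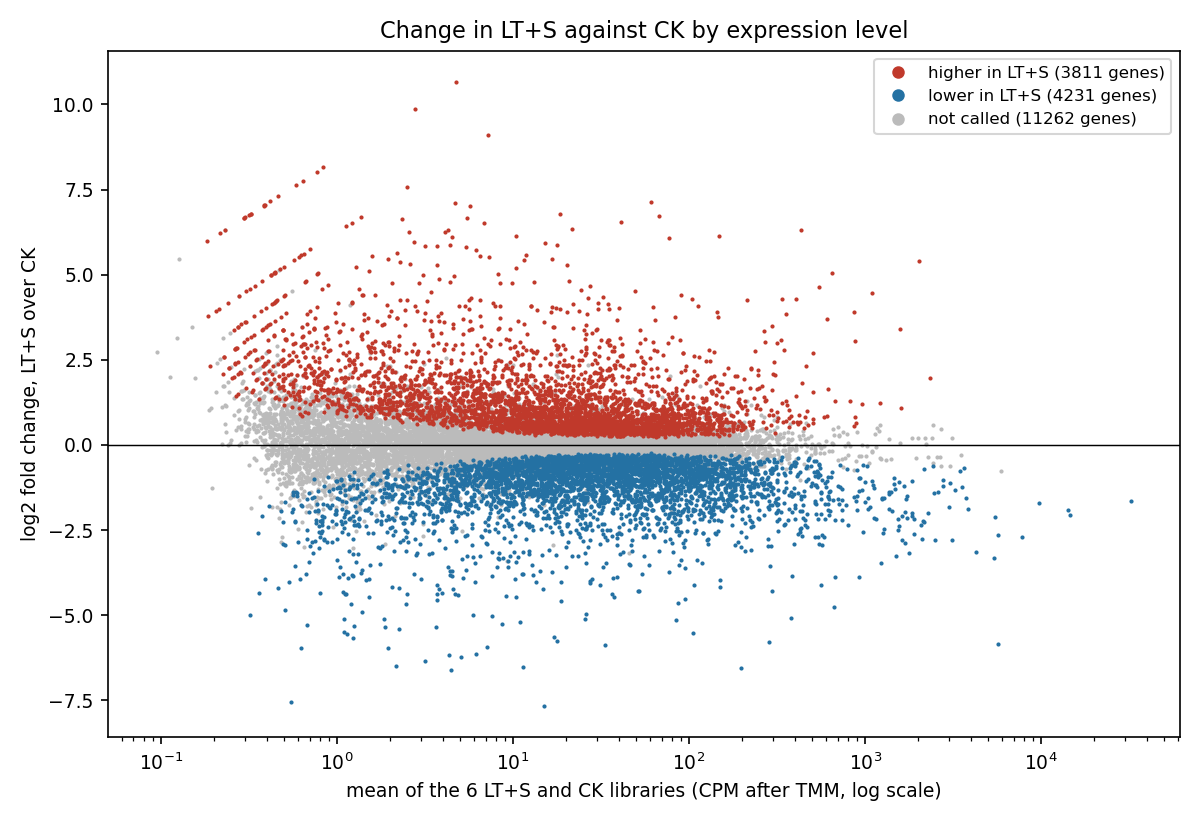
Each point is 1 of the 19304 genes tested, with its mean over the 6 LT+S and CK libraries (CPM after TMM, log scale) on the x axis and its log2 fold change, LT+S over CK, on the y axis. The 3811 higher and 4231 lower genes are coloured, and at 100 CPM or more the lower genes (804) outnumber the higher genes (312). The slanting lines of points at the left are genes with very few counts in 1 group, whose fitted fold change depends on the prior count.

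**Figure D2:**
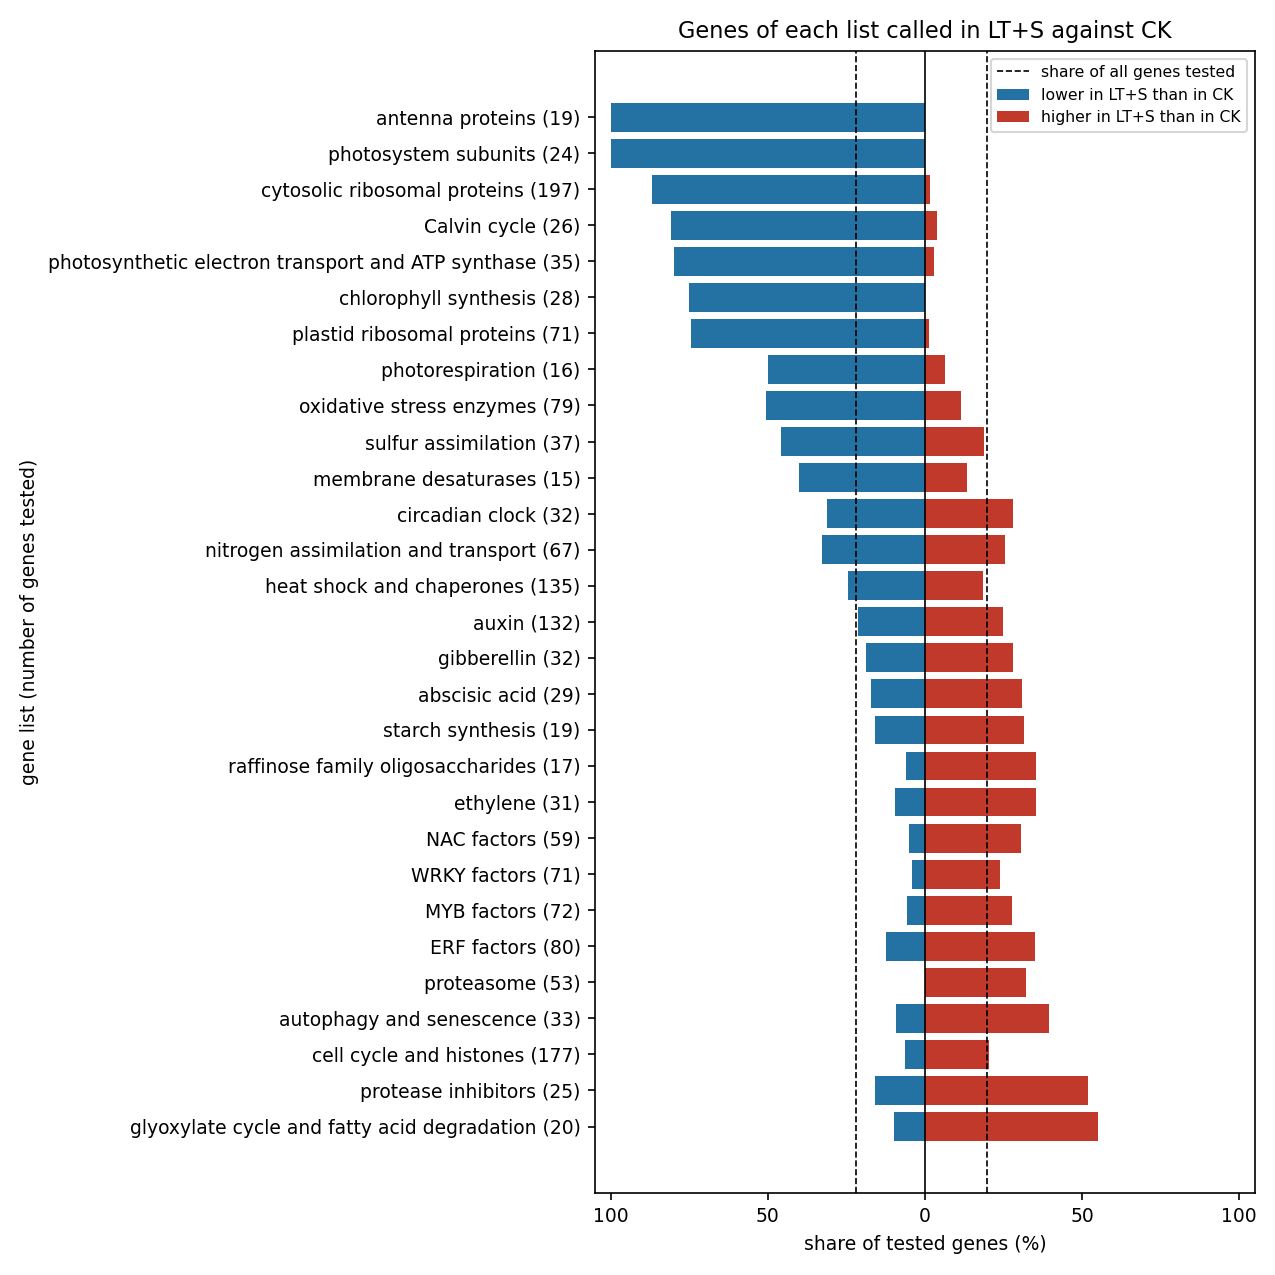
Bars give, for each gene list on the y axis (number of genes tested in brackets), the percent of its tested genes that were lower (left) or higher (right) in LT+S than in CK and called by edgeR, and dashed lines mark the shares over all genes tested (21.9% lower and 19.7% higher). Antenna and photosystem lists reach 100% lower, while the proteasome list has no lower gene and 17 of 53 higher.

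Photosynthesis genes were mostly lower in LT+S. All 19 antenna genes, which encode the proteins that hold light-harvesting chlorophyll, and all 24 genes for photosystem subunits were lower in LT+S, with medians of -2.46 and -1.94. Antenna genes took 1.56, 1.56 and 1.68% of all counts in LT+S, against 3.91, 4.82 and 6.06% in CK. Genes of photosynthetic electron transport and ATP synthase were lower in 28 of 35 cases and higher in 1, with a median of -1.88. No share overlapped between LT+S and CK in these lists, and the exact permutation test over libraries gave p = 0.1 for the antenna share, the smallest value that 3 libraries against 3 allow. In whole leaves, fewer cells of a type and less RNA per cell cannot be told apart. Of the 22 leaf mesophyll markers, most of which are antenna and Rubisco genes of these lists, 21 were lower, and their summed level was 15909 to 18361 CPM in LT+S and 60455 to 101994 CPM in CK.

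Photosynthesis genes followed by the study varied widely among CK pots. Chlorophyll a-b binding protein 13 (LOC106780309) had 341, 244 and 268 CPM in LT+S, against 1575, 2609.9 and 3975 CPM in CK (log2 fold change -3.26 with an SE of 0.42, edgeR adjusted p = 0.000527). Chlorophyll a-b binding protein 3 (LOC106777957) had 49.9, 61.9 and 32.5 CPM in LT+S, against 117, 1179 and 2575 CPM in CK (log2 fold change -4.75 with an SE of 0.95, edgeR adjusted p = 0.00405). Ferredoxin-1 (LOC106775679), the soluble carrier that takes electrons from photosystem I, had 16.2, 13.5 and 11.7 CPM in LT+S, against 40.9, 75.2 and 118 CPM in CK (log2 fold change -2.49 with an SE of 0.38, edgeR adjusted p = 0.00115). In each of these genes every LT+S library lay below every CK library, and CK 3 was the highest and CK 1 the lowest of the CK libraries. Oxygen-evolving enhancer protein 1 (LOC106768113), which stabilises the manganese cluster that splits water, was at -2.78 on the log2 scale, and porphobilinogen deaminase (LOC106778066), an early step of chlorophyll synthesis, was at -2.49.

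Carbon fixation took more of the counts than the antenna or photosystem lists did. Calvin cycle genes and their helpers took 3.73, 4.62 and 5.18% of all counts in LT+S, against 12.3, 12.6 and 12.8% in CK, and 21 of 26 were lower and 1 was higher. Rubisco activase (LOC106757684), which frees Rubisco from inhibitory sugars, was among the 10 genes with the highest CPM in both groups and had 11972, 16197 and 19085 CPM in LT+S, against 53047, 49757 and 43995 CPM in CK (log2 fold change -1.64 with an SE of 0.41, edgeR adjusted p = 0.0119). Chloroplast carbonic anhydrase (LOC106771342, chromosome 1, 1285929 to 1290480 in Vradiata_ver6), which interconverts CO2 and bicarbonate, had 160.4, 248 and 174 CPM in LT+S, against 8821, 10521 and 14024 CPM in CK (log2 fold change -5.84 with an SE of 0.68, edgeR adjusted p = 0.00032). The LT+S and CK libraries did not overlap for either gene, and the highest LT+S level of this carbonic anhydrase was far below its lowest CK level. Other carbonic anhydrase genes changed less, with log2 fold changes of -1.46 for LOC106779026 and -1.23 for LOC106779923, named here after their values were seen. Fructose-bisphosphate aldolase 1 (LOC106780539) had 4728, 5859 and 6212 CPM in LT+S, against 25287, 23456 and 21561 CPM in CK, and phosphoribulokinase (LOC106777824), which makes the acceptor of CO2, had 1835, 2021 and 2285 CPM in LT+S, against 8603, 8756 and 9421 CPM in CK. Both were lower in every LT+S library, at -2.07 and -2.12 on the log2 scale. The 1 higher member was a Rubisco small chain gene (LOC106767270) of very low level, with 3.55, 1.26 and 1.34 CPM in LT+S, against 0.116, 0.238 and 0.786 CPM in CK, and was not called without LT+S 1 or CK 2 (edgeR adjusted p = 0.0644 and 0.0739).

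**Figure D3:**
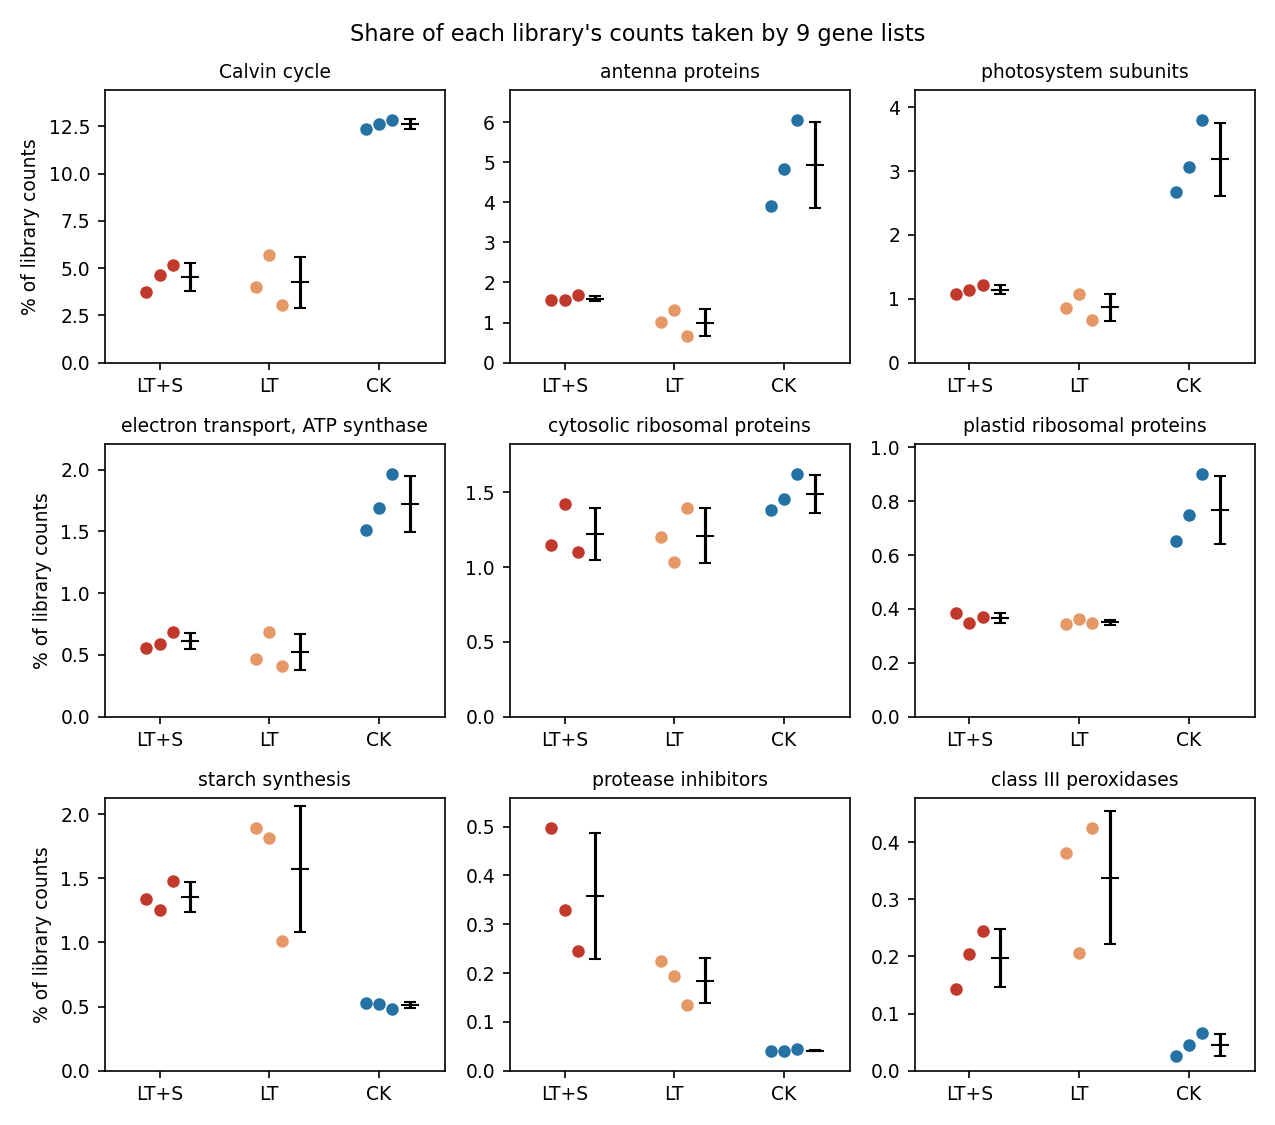
Each panel gives the percent of a library's counts taken by 1 gene list (y axis, starting at 0) in the 3 LT+S, 3 LT and 3 CK libraries (x axis), with the mean and SD beside the points. Calvin cycle genes took 3.73 to 5.18% in LT+S and 12.3 to 12.8% in CK, protease inhibitors 0.246 to 0.498% in LT+S and 0.040 to 0.044% in CK, and the shares of cytosolic ribosomal proteins overlap.

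Chlorophyll and carotenoid genes did not move as 1 block. Chlorophyll synthesis genes were lower in 21 of 28 cases and higher in 0, with a median of -1.05. Chlorophyll breakdown genes were lower in 5 and higher in 4 of 13 cases (4 and 7 with library totals alone). Pheophytinase, which cuts the phytol tail from the pigment, showed opposite changes in its copies: LOC106762849 had 785, 589 and 416 CPM in LT+S, against 99.5, 71.7 and 39.3 CPM in CK (log2 fold change 3.09 with an SE of 0.37, edgeR adjusted p = 0.000357), and LOC106756159 had 116, 127 and 122 CPM in LT+S, against 526, 439.5 and 383 CPM in CK (log2 fold change -1.88 with an SE of 0.24, edgeR adjusted p = 0.000531). The first was higher and the second lower in every LT+S library. Of the genes named here after their values were seen, STAY-GREEN (LOC106776916), which removes magnesium from chlorophyll a at the start of breakdown, was at 1.55 on the log2 scale, and chlorophyll b reductase NYC1 (LOC106774182) was at 1.23. STAY-GREEN LIKE (LOC106778818), a relative of STAY-GREEN, was at -3.13.

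Photoprotection and carotenoid genes were lower in 18 of 33 cases and higher in 6 (11 and 8 with library totals alone). The photosystem II 22 kDa protein (LOC106759760), the PsbS protein that switches on heat dissipation of excess light, had 2574, 1875 and 1839 CPM in LT+S, against 4954, 4698 and 5203 CPM in CK. Phytoene synthase (LOC106765025), the entry step of carotenoid synthesis, had 494, 344 and 312 CPM in LT+S, against 171, 155 and 143 CPM in CK, and lycopene epsilon cyclase (LOC106761979), which opens the branch to lutein, had 40.3, 31.8 and 34.5 CPM in LT+S, against 84.3, 100.1 and 111 CPM in CK. Thus PsbS and the cyclase were lower, at -1.24 and -1.47 on the log2 scale, while phytoene synthase was higher, at 1.29. These 3 genes were named after their values were seen. One thylakoid gene stood far apart from its surroundings: the thioredoxin-like protein HCF164 (LOC106767948, chromosome 7, 26710685 to 26711813), which carries reducing power into the thylakoid lumen for assembly of the cytochrome b6-f complex, had 40.4, 46.9 and 41.8 CPM in LT+S, against 0.29, 0.595 and 0.72 CPM in CK (log2 fold change 6.33 with an SE of 0.35, edgeR adjusted p = 2.78e-05). It was nearly absent from all 3 CK libraries.

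The machinery that builds proteins inside plastids was lower as well. Plastid ribosomal protein genes were lower in 53 of 71 cases and higher in 1, with a median of -1.46, and 50S ribosomal protein L13 (LOC106756633) had 32.3, 30.9 and 36 CPM in LT+S, against 163, 178 and 214 CPM in CK. Chloroplast RNA-binding protein CP31B (LOC106769106), of a family that stabilises plastid messenger RNAs, had 94.7, 93.1 and 91.5 CPM in LT+S, against 625, 700.4 and 771 CPM in CK (log2 fold change -2.91 with an SE of 0.16, edgeR adjusted p = 2.78e-05). Chloroplast ClpB3 (LOC106771372), a chaperone that resolves protein aggregates, was at -2.36, whereas the chaperonin-like RBCX protein 1 (LOC106775625), which helps Rubisco assemble, was at 2.65. For L13 and CP31B every LT+S library was below every CK library. Of 46 genes in the aminoacyl-tRNA pathway, 29 were lower and 1 was higher at a median of -0.46, which was 0.03 with library totals alone, when 16 were lower and 9 higher. Its 4 described genes with the smallest p, named after their values were seen, encode the organellar enzymes for phenylalanine, isoleucine, glutamate and valine, and ranged from -1.94 (LOC106759286) to -1.20 (LOC106770321).

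Genes of cytosolic ribosomal proteins were lower by a smaller median. Of 197 genes, 171 were lower and 3 were higher, with a median of -0.76. With library totals alone the median was -0.26, and 57 were lower and 10 higher. Their share of the counts was 1.15, 1.42 and 1.1% of all counts in LT+S, against 1.38, 1.46 and 1.62% in CK, and the groups overlapped. Ribosome biogenesis factors, which assemble ribosomes in the nucleolus, were lower in 11 and higher in 5 of 53 cases (1 lower and 13 higher with library totals alone). The lower count was 6 without LT+S 1 or LT+S 3 and 7 without CK 1 or CK 2, and the higher count was 3 without LT+S 1 or CK 3, 2 without LT+S 2 and 1 without CK 2.

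The nitrogen list held large changes in both directions. Ferredoxin-nitrite reductase (LOC106769212, chromosome 7, 7086235 to 7088919), which makes ammonium from nitrite in the chloroplast, had 9.28, 7.76 and 6.74 CPM in LT+S, against 126, 185 and 231 CPM in CK (log2 fold change -4.51 with an SE of 0.31, edgeR adjusted p = 4.3e-05). Asparagine synthetase 1 (LOC106764888, chromosome 6, 17008744 to 17014263), which stores nitrogen in asparagine and is typically high in dark or starved leaves, had 4686, 2858 and 4342 CPM in LT+S, against 171, 93.1 and 18.3 CPM in CK (log2 fold change 5.40 with an SE of 0.77, edgeR adjusted p = 0.000796). It was among the 10 genes with the highest CPM in LT+S, and CK 1 was the highest and CK 3 the lowest of the CK libraries. In the nitrogen list as a whole, 22 of 67 genes were lower and 17 were higher (13 and 28 with library totals alone). The nitrate transporter NRT1/PTR FAMILY 5.4 (LOC106773779) was at -3.81 and NRT1/PTR FAMILY 2.11 (LOC106769457) was at 2.05.

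Sulfur assimilation genes included large decreases. Of 37 genes, 17 were lower and 7 were higher with a median of -0.42, whereas with library totals alone 10 were lower and 10 higher with a median of 0.08. The copies of SULFUR DEFICIENCY-INDUCED 1, a protein induced in sulfur-starved plants that represses glucosinolate synthesis in Arabidopsis, had 4.36, 3.16 and 2.68 CPM in LT+S, against 69.6, 54.9 and 52.8 CPM in CK (LOC106752419) and 2.65, 3.16 and 4.18 CPM in LT+S, against 53, 64.6 and 92.4 CPM in CK (LOC106752420). Both fell, by 4.12 and 4.39 on the log2 scale, and their LT+S libraries lay below all CK libraries. 5'-adenylylsulfate reductase 1 (LOC106775990), the main control point of sulfate reduction, had 430.3, 361 and 437 CPM in LT+S, against 2713, 2823 and 2948 CPM in CK (log2 fold change -2.79 with an SE of 0.37, edgeR adjusted p = 0.000557). Cysteine synthase (LOC106780182), which completes cysteine, was at -2.53, and serine acetyltransferase 5 (LOC106773178), which supplies its precursor, was at -1.81. The reductase and the acetyltransferase were named after their values were seen.

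Photorespiration genes, which recover carbon from the oxygenation of ribulose bisphosphate, were lower in 8 of 16 cases and higher in 1, with a median of -0.74 (6 and 5 with library totals alone, and a median of -0.24). D-glycerate 3-kinase (LOC106762683), the last step of the cycle, was at -2.11, and aminomethyltransferase (LOC106768881), of the glycine cleavage complex, was at -2.56. Glycine dehydrogenase (LOC106764689), a further gene of that complex and among the 10 genes with the highest CPM in LT+S, had 4646, 3848 and 4628 CPM in LT+S, against 8151, 7763 and 6169.8 CPM in CK and was not called (log2 fold change -0.75 with an SE of 0.31, edgeR adjusted p = 0.0781). Both glycine cleavage genes named here had negative fold changes, only the first was called, and a difference between them was not tested.

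Single genes of proline and polyamine synthesis had large changes in both directions. Delta-1-pyrroline-5-carboxylate synthase (LOC106774140), which commits glutamate to proline, had 558, 484 and 174 CPM in LT+S, against 23.1, 21.7 and 19 CPM in CK (log2 fold change 4.25 with an SE of 0.45, edgeR adjusted p = 0.000212). S-adenosylmethionine decarboxylase (LOC106777763), which supplies aminopropyl groups for polyamines and was among the 10 genes with the highest CPM in LT+S, had 3863, 3504 and 3786 CPM in LT+S, against 952, 925 and 965 CPM in CK (log2 fold change 1.97 with an SE of 0.17, edgeR adjusted p = 8.8e-05). Spermine synthase (LOC106778914), which uses them at the last step, had 18, 16.9 and 15.3 CPM in LT+S, against 113, 86.7 and 78.2 CPM in CK (log2 fold change -2.47 with an SE of 0.16, edgeR adjusted p = 4e-05). The first 2 genes were higher and spermine synthase lower in every LT+S library, and proline and spermine enzymes were named after their values were seen. The arginine and proline pathway held 20 higher and 10 lower genes of 54. They numbered 35 and 3 with library totals alone, and the higher count was 13 without LT+S 1, 12 without LT+S 2 and 10 without CK 2.

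Starch genes showed large increases in few members. Starch synthesis genes took 1.34, 1.25 and 1.48% of all counts in LT+S, against 0.529, 0.519 and 0.484% in CK, although 6 of 19 were higher and 3 were lower. A branching enzyme (LOC106762405), which adds the side chains of amylopectin, had 2152, 1322 and 1416 CPM in LT+S, against 158, 109 and 58.2 CPM in CK (log2 fold change 3.91 with an SE of 0.44, edgeR adjusted p = 0.000268). A large subunit of glucose-1-phosphate adenylyltransferase (LOC106762605), the regulated entry step, had 1760.4, 1143 and 1762 CPM in LT+S, against 156, 185 and 227 CPM in CK (log2 fold change 3.04 with an SE of 0.33, edgeR adjusted p = 0.000253). Other large subunit genes moved both ways: LOC106756232 was at 3.40 and LOC106768666 at -2.20, both named after their values were seen. Among starch breakdown genes, 6 were higher and 7 were lower of 27 (11 higher and 2 lower with library totals alone). The cytosolic type of alpha-glucan phosphorylase (LOC106775971, chromosome 10, 8877454 to 8885616) had 911, 715 and 688 CPM in LT+S, against 40.1, 40.5 and 37.9 CPM in CK (log2 fold change 4.29 with an SE of 0.19, edgeR adjusted p = 2.37e-05), and beta-amylase 3 (LOC106769316), a plastid enzyme that releases maltose and is cold-induced in Arabidopsis, was at 1.82. Every LT+S library exceeded every CK library for both.

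Among raffinose family genes, which make or cut galactose-bearing sugars that accumulate in chilled plants, 6 were higher and 1 was lower of 17. Raffinose synthase (galactinol-sucrose galactosyltransferase, LOC106761957) had 39.6, 18.2 and 12.3 CPM in LT+S, against 0.581, 0.595 and 0.262 CPM in CK (log2 fold change 5.57 with an SE of 0.55, edgeR adjusted p = 0.000155). A second such gene (LOC106757929) had 74, 64.7 and 46.4 CPM in LT+S, against 11.3, 6.73 and 3.73 CPM in CK, and galactinol synthase 1 (LOC106757161), which provides the galactosyl donor, had 85.8, 55.3 and 28.3 CPM in LT+S, against 8.24, 17.1 and 31.6 CPM in CK. The 2 galactosyltransferases did not overlap between groups, while galactinol synthase 1, named after its values were seen, was called at 1.58 with LT+S 3 below CK 3, and was not called without LT+S 1, LT+S 2, CK 1 or CK 2 (edgeR adjusted p = 0.0581 to 0.104). Sugar transport genes were higher in 13 and lower in 9 of 48 cases (22 and 5 with library totals alone), and the lower count was 4 without LT+S 1 or LT+S 2 and 5 without CK 2 or CK 3. Sucrose metabolism genes were higher in 6 and lower in 2 of 25 cases (10 and 1 with library totals alone), with 3 higher without CK 2. A cell wall invertase (LOC106773632), which splits sucrose outside the cell, was at 2.94, and a soluble vacuolar type (LOC106762541) at -2.78.

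Lipid breakdown genes were more often higher. The glyoxylate cycle and fatty acid degradation list held 11 higher and 2 lower genes of 20, with a median of 0.59. In the fatty acid degradation pathway of the file, 22 were higher and 6 were lower of 46, with a median of 0.42. Malate synthase (LOC106768605), which joins glyoxylate and acetyl-CoA, had 119, 131 and 117 CPM in LT+S, against 21.4, 26.8 and 31 CPM in CK (log2 fold change 2.21 with an SE of 0.16, edgeR adjusted p = 4.77e-05). Another malate synthase gene (LOC106766317) had 26.4, 11.1 and 5.73 CPM in LT+S, against 0.0581, 0 and 0 CPM in CK. Isocitrate lyase 2 (LOC106754322), its partner in the cycle, had 24.1, 7.67 and 2.09 CPM in LT+S, against 0.174, 0.0595 and 0 CPM in CK, and its adjusted p was 0.00596 in edgeR and 0.16 in limma-voom. All 3 glyoxylate cycle genes were higher in every LT+S library, and LOC106766317 and LOC106754322 were close to 0 in CK. Peroxisomal acyl-CoA oxidase 1 (LOC106768333), the first step of beta-oxidation, was at 1.18.

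Membrane desaturase genes were lower in 6 and higher in 2 of 15 cases, with 10 lower without CK 1. Their log2 fold changes ran from -3.80 to 3.94. The pathway for biosynthesis of unsaturated fatty acids, named after its values were seen, held 8 higher and 4 lower genes of 21 (10 and 3 with library totals alone). The chloroplast omega-6 desaturase (LOC106769001), which places the second double bond in plastid lipids, had 103, 113 and 127 CPM in LT+S, against 309.6, 369 and 413 CPM in CK (log2 fold change -1.67 with an SE of 0.18, edgeR adjusted p = 0.000246), and stearoyl-ACP desaturase (LOC106768998), which places the first, had 142, 140.0 and 123 CPM in LT+S, against 354, 371 and 429 CPM in CK. Both were lower in LT+S without overlap. Cutin and wax genes were higher in 24 and lower in 20 of 101 cases (37 and 16 with library totals alone), with 31 lower without CK 1 and 10 higher among genes with a mean of at least 1 CPM. ECERIFERUM 1 (LOC106772969), which forms wax alkanes, had 11, 4.8 and 0.795 CPM in LT+S, against 0, 0 and 0 CPM in CK, so that its mean was at least 30.2-fold higher than a floor of 3 counts in each CK library. A 3-ketoacyl-CoA synthase 6 gene (LOC106776380), of the enzyme that extends wax precursors, was at 5.71, and another gene of that name (LOC106772353) was at -1.58.

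The terpenoid backbone pathway of the file, named after its values were seen, held 16 higher and 13 lower genes of 56 (31 and 8 with library totals alone), with a median of 0.23 and log2 fold changes from -6.62 to 6.69. Among isoprenoid genes named here, 2 were much lower in LT+S. The chloroplast reductoisomerase of the methylerythritol phosphate pathway (DXR, LOC106772984), which leads to carotenoids, chlorophyll side chains and gibberellins, had 999, 1329 and 634 CPM in LT+S, against 11624, 9547 and 8274 CPM in CK (log2 fold change -3.31 with an SE of 0.35, edgeR adjusted p = 0.000213). Isoprene synthase (LOC106771573), which releases the volatile isoprene, had 0.0427, 0.0843 and 0.126 CPM in LT+S, against 17.8, 7.38 and 1.44 CPM in CK. LT+S was below CK in every library for both genes.

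Proteolysis genes were more often higher than lower. None of 53 proteasome subunit genes was lower and 17 were higher, with a median of 0.21. The higher count was 48 with library totals alone, 10 without LT+S 1, 9 without LT+S 2 and 5 without CK 2. Autophagy and senescence genes were higher in 13 and lower in 3 of 33 cases (27 and 1 with library totals alone), with 8 higher without CK 2. Autophagy-related protein 13a (LOC106765058), part of the kinase complex that starts autophagosomes, had 55.4, 57 and 54.1 CPM in LT+S, against 24.3, 22 and 20.1 CPM in CK (log2 fold change 1.33 with an SE of 0.10, edgeR adjusted p = 6.48e-05). The cysteine protease SAG39 (LOC106755688), named for its expression in senescing leaves, was lower at -3.87.

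Protease inhibitor genes, products of which block digestive proteases of insects and some endogenous ones, were higher in 13 of 25 cases and lower in 4. They took 0.498, 0.33 and 0.246% of all counts in LT+S, against 0.0402, 0.0401 and 0.0435% in CK. Chymotrypsin inhibitor 3 genes led the list, with 1318, 742 and 491 CPM in LT+S, against 5.69, 9.82 and 16.4 CPM in CK for LOC106755425 (log2 fold change 6.32 with an SE of 0.58, edgeR adjusted p = 0.000121) and 2015, 1181 and 574 CPM in LT+S, against 32.6, 36.7 and 44.5 CPM in CK for LOC106778722 (log2 fold change 5.05 with an SE of 0.50, edgeR adjusted p = 0.000158). In both genes LT+S 1 was highest and LT+S 3 lowest, and neither overlapped with CK. Reads of closely similar copies can be assigned to the wrong copy, and how alike these genes are was not measured here.

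**Figure D4:**
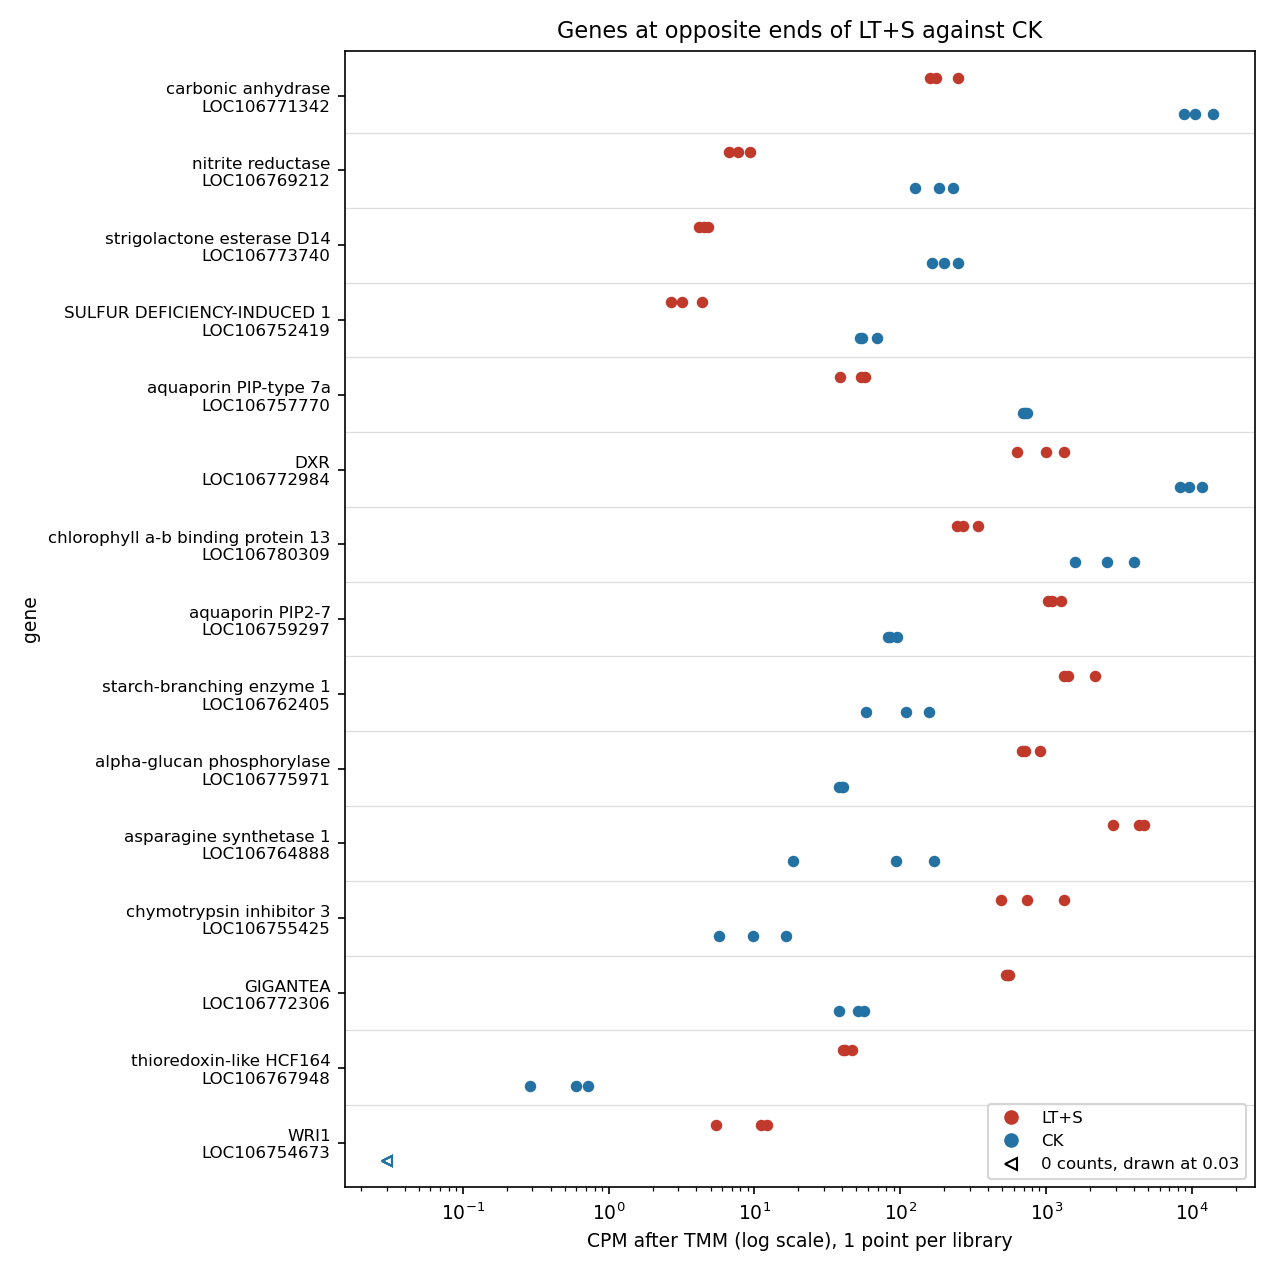
Each point is 1 library, with its level on the x axis (CPM after TMM, log scale) for 15 genes on the y axis, LT+S above CK, and an open triangle marks 0 counts. In each gene the LT+S points lie wholly to 1 side of the CK points, as for carbonic anhydrase (160.4 to 248 CPM in LT+S and 8821 to 14024 CPM in CK) and GIGANTEA (528 to 555 CPM in LT+S and 38 to 56 CPM in CK). The genes were picked with their values in view, so this separation reflects the choice. Over all genes tested, LT+S lay wholly above CK for 28.2% and wholly below for 27.4%.

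Gibberellin genes included a target of uniconazole. The single ent-kaurene oxidase gene (LOC106762922, chromosome 6, 10459988 to 10462784) had 19.1, 19.3 and 20.8 CPM in LT+S, 21.3, 16.8 and 12 CPM in LT and 10.6, 8.33 and 8.38 CPM in CK (log2 fold change 1.11 with an SE of 0.21, edgeR adjusted p = 0.00277, LT+S over CK). The 6 LT+S and CK libraries did not overlap. Of 32 gibberellin genes, 9 were higher and 6 were lower. The receptor GID1B (LOC106757833, chromosome 3, 696435 to 699190), which triggers the loss of DELLA repressors when it binds the hormone, had 152, 152 and 173 CPM in LT+S, against 27.9, 25.1 and 20.6 CPM in CK (log2 fold change 2.70 with an SE of 0.28, edgeR adjusted p = 0.000198).

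Gibberellin 2-beta-dioxygenases, which inactivate the hormone, moved both ways. The copy named 6 (LOC106764208) had 6.2, 4.34 and 5.73 CPM in LT+S, 2.77, 1.55 and 2.24 CPM in LT and 0, 0.0595 and 0.196 CPM in CK. It was lowest in CK and highest in LT+S, without overlap, and was not called in LT+S against LT. The copy named 8 (LOC106778530) had 0.385, 0.548 and 0.753 CPM in LT+S, against 3.54, 5.18 and 6.74 CPM in CK (log2 fold change -3.18 with an SE of 0.37, edgeR adjusted p = 0.000314). A further copy named 8 (LOC106778584) had 0, 0 and 0 CPM in LT+S, against 1.92, 0.833 and 0.524 CPM in CK, which puts it at least 8.61-fold lower in LT+S when 3 counts per library are taken as the floor. The copies named 6 and 8 thus differed from CK in opposite directions.

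Abscisic acid 8'-hydroxylases were also mixed. Of the 7 genes, 4 were higher, 1 was lower and 2 were not called. Of the higher genes, LOC106765605 had 138, 157 and 122 CPM in LT+S, against 81.2, 65.7 and 62.9 CPM in CK (log2 fold change 0.99, and adjusted p = 0.0141 in edgeR, 0.055 without CK 2). LOC106767139 had 8.59, 5.39 and 5.73 CPM in LT+S, against 1.1, 1.25 and 1.24 CPM in CK (log2 fold change 2.45 with an SE of 0.31, edgeR adjusted p = 0.000493). Another (LOC106777777) had 21.6, 15.4 and 13.3 CPM in LT+S, against 5.11, 3.87 and 3.8 CPM in CK. The last (LOC106755472) had 1.28, 0.801 and 0.837 CPM in LT+S, against 0, 0.0595 and 0.0655 CPM in CK, and 1 count at most in each CK library. The lower gene was LOC106753610, with 109, 121 and 106 CPM in LT+S, against 247, 216 and 189 CPM in CK (log2 fold change -0.95 with an SE of 0.27, edgeR adjusted p = 0.019), which was at -0.46 (adjusted p = 0.13) with library totals alone. It was also not called without LT+S 1, LT+S 3, CK 1 or CK 2 (edgeR adjusted p = 0.0508 to 0.0635). LOC106764057 (log2 fold change -1.11 with an SE of 0.40, edgeR adjusted p = 0.0522) and LOC106761657 (log2 fold change 0.80 with an SE of 0.30, edgeR adjusted p = 0.0614) were not called.

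The whole abscisic acid list held 9 higher and 5 lower genes of 29 (13 and 3 with library totals alone), with 3 lower without CK 2. The dioxygenase NCED1 (LOC106759781), the rate-limiting step of the hormone's synthesis, had 192, 72.3 and 57.9 CPM in LT+S, against 31.4, 28.5 and 18.6 CPM in CK and was at 2.04. Receptors PYL1 (LOC106767322) and PYL4 (LOC106770900) were at -1.41 and -1.74. NCED1 and PYL4 were named after their values were seen.

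**Figure D5:**
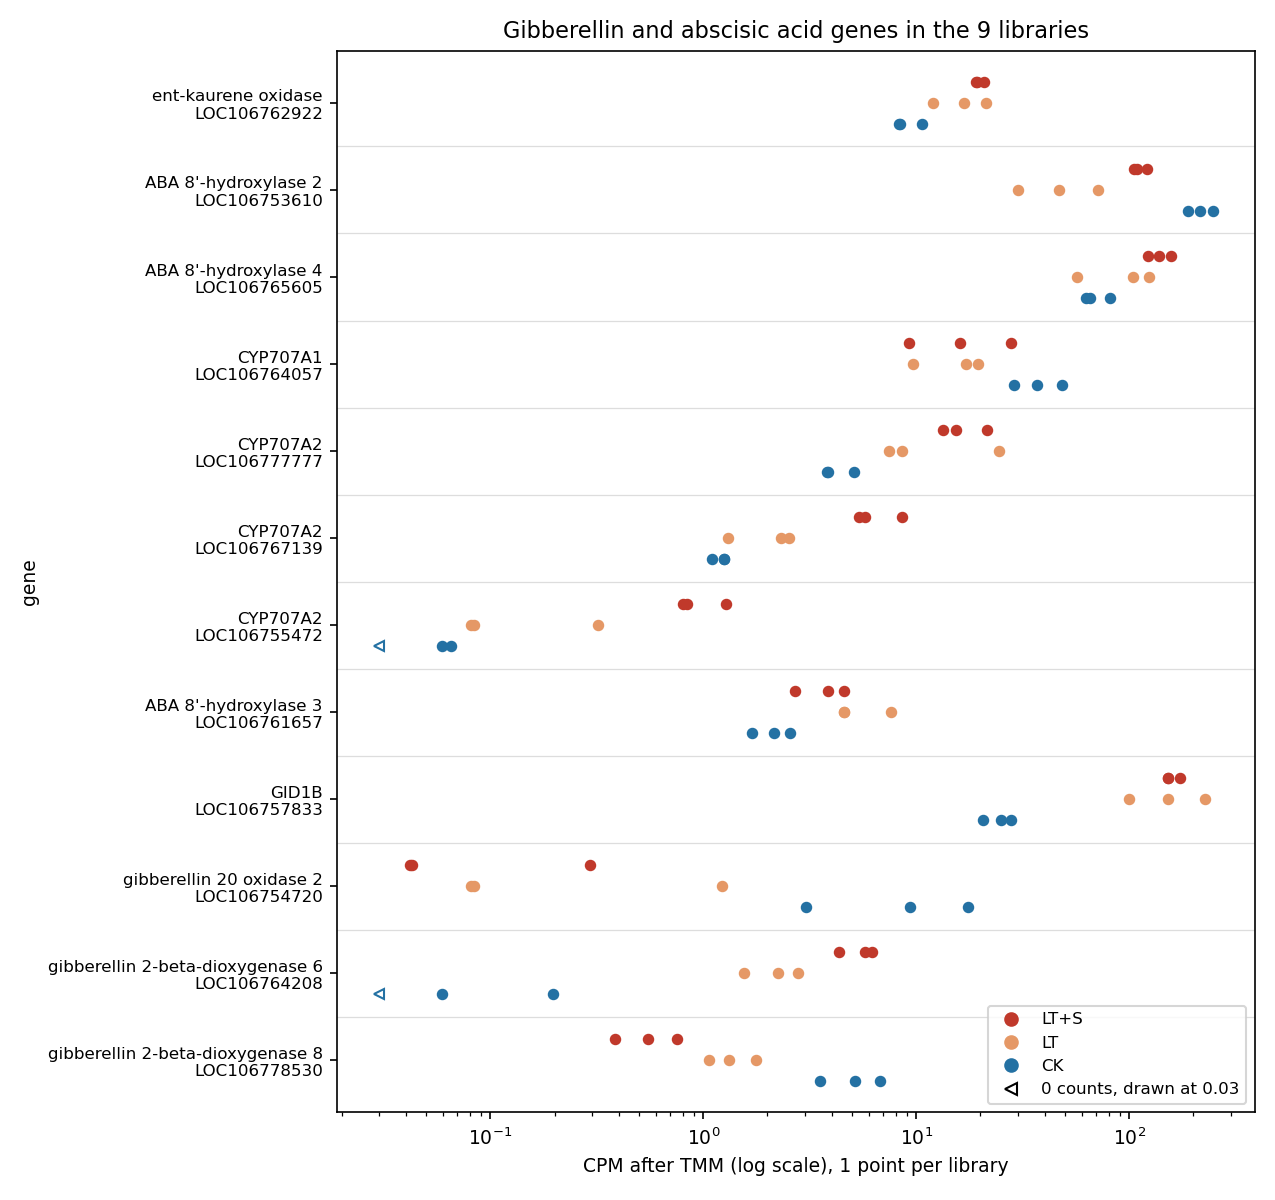
Each point is 1 library, with its level on the x axis (CPM after TMM, log scale) for the ent-kaurene oxidase gene, the 7 abscisic acid 8'-hydroxylase genes and 4 other gibberellin genes on the y axis, LT+S above LT and CK, and an open triangle marks 0 counts. Ent-kaurene oxidase lay at 19.1 to 20.8 CPM in LT+S and 8.33 to 10.6 CPM in CK, and GID1B at 152 to 173 CPM in LT+S and 20.6 to 27.9 CPM in CK.

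Other hormone groups contained large single changes. The strigolactone receptor D14 (LOC106773740), an esterase that perceives the branching hormone, had 4.53, 4.8 and 4.14 CPM in LT+S, against 165, 199.7 and 249.8 CPM in CK (log2 fold change -5.51 with an SE of 0.31, edgeR adjusted p = 2.78e-05), and a second D14 gene (LOC106756955) was at -5.48. Of 15 strigolactone and karrikin genes, 4 were lower and 1 was higher (3 and 7 with library totals alone). Cytokinin dehydrogenase 6 (LOC106761132), which destroys cytokinin, had 0.513, 0.464 and 1 CPM in LT+S, against 42.5, 33 and 25.1 CPM in CK (log2 fold change -5.65 with an SE of 0.43, edgeR adjusted p = 6.06e-05), and the activating enzyme LOG (LOC106762310) had 64.8, 58.8 and 67 CPM in LT+S, against 10.5, 9.82 and 7.53 CPM in CK. The dehydrogenase was lower and LOG higher in every LT+S library, and the list as a whole had 15 higher and 11 lower of 61 (36 and 4 with library totals alone). The lower count was 5 without LT+S 2 or CK 2, 6 without CK 1 and 7 without LT+S 1 or LT+S 3.

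Brassinosteroid C-6 oxidase CYP85A (LOC106758156), a late step of synthesis, had 82.8, 173 and 177 CPM in LT+S, against 14, 16 and 18.5 CPM in CK (log2 fold change 3.16 with an SE of 0.29, edgeR adjusted p = 0.000123). Ethylene genes were higher in 11 and lower in 3 of 31 cases (17 and 1 with library totals alone), with a median of 0.27, and 5 were lower without CK 3. Ethylene receptor 2 (LOC106772158) had 43.9, 53.7 and 61.1 CPM in LT+S, against 23.6, 21.4 and 16 CPM in CK and EIN3-binding F-box protein 2 (LOC106768716), which targets the pathway's main transcription factor for degradation, had 81.6, 87.3 and 71.6 CPM in LT+S, against 41.1, 37.3 and 29.1 CPM in CK. These receptor and feedback genes were higher in every LT+S library. Allene oxide synthase 1 (LOC106776619), which commits lipid peroxides to jasmonate, was at 2.59, and the jasmonate repressor TIFY 6B (LOC106769287) was at 1.55. Auxin genes were higher in 33 and lower in 28 of 132 cases, with 21 higher without LT+S 1 or CK 2 (54 higher and 15 lower with library totals alone).

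ERF, NAC, WRKY and MYB transcription factors were more often higher than lower, with medians that stayed above 0 under each scaling tried. ERF factors, which include ethylene and cold regulators, were higher in 28 and lower in 10 of 80 cases, with a median of 0.63. NAC factors were higher in 18 and lower in 3 of 59, WRKY factors in 17 and 3 of 71, and MYB factors in 20 and 4 of 72. Without CK 2 the higher counts were 18 for ERF, 11 for WRKY and 12 for MYB factors, and without LT+S 2 it was 13 for MYB factors. The lower counts were 7 for MYB factors without CK 1 and 5 for WRKY factors without LT+S 3. With library totals alone the higher counts were 44 for ERF, 28 for NAC, 35 for WRKY and 32 for MYB factors. DREB2C (LOC106764035), which binds dehydration-responsive elements, had 28.5, 28.6 and 35 CPM in LT+S, against 4.35, 2.92 and 3.54 CPM in CK (log2 fold change 3.09 with an SE of 0.18, edgeR adjusted p = 3.31e-05). NAC100 (LOC106757170) had 153, 100.3 and 102 CPM in LT+S, against 12.3, 8.63 and 6.87 CPM in CK (log2 fold change 3.68 with an SE of 0.31, edgeR adjusted p = 8.8e-05). PIF4 (LOC106763151), a growth-promoting factor that links light, temperature and gibberellin signals in Arabidopsis, had 167, 138 and 174 CPM in LT+S, against 33.2, 24 and 16.1 CPM in CK (log2 fold change 2.71 with an SE of 0.26, edgeR adjusted p = 0.000141). None of these genes overlapped between groups.

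WRI1 (LOC106754673), a factor that turns on fatty acid synthesis genes in seeds and was followed by the study, had 12.2, 11 and 5.44 CPM in LT+S, against 0, 0 and 0 CPM in CK. It had 0 counts in every CK library, was at least 52.1-fold higher in LT+S at a floor of 3 counts per library, and had an adjusted p of 0.000188 in edgeR. The LT libraries had 2.73, 4.37 and 2.44 CPM, and the gene was not called in LT+S against LT.

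The circadian clock list held 9 higher and 10 lower genes of 32 (16 and 4 with library totals alone). GIGANTEA (LOC106772306, chromosome 1, 23329142 to 23346532), an evening protein of the clock and of flowering, had 555, 528 and 544 CPM in LT+S, against 56, 51.4 and 38 CPM in CK (log2 fold change 3.48 with an SE of 0.17, edgeR adjusted p = 2.37e-05), and the blue-light receptor Adagio 3 (LOC106765618), its partner FKF1 in Arabidopsis, had 49.7, 60.4 and 77.6 CPM in LT+S, against 5.05, 7.92 and 9.36 CPM in CK (log2 fold change 3.07 with an SE of 0.24, edgeR adjusted p = 6.36e-05). EARLY FLOWERING 3 (LOC106765119), of the evening complex, had 37.7, 38.6 and 39 CPM in LT+S, against 16, 15.9 and 12.4 CPM in CK. Of the morning genes, named after their values were seen, LHY (LOC106778180) had 1200.5, 1096 and 1302 CPM in LT+S, against 2825, 2524 and 2132 CPM in CK, at -1.06 on the log2 scale, and LNK2 (LOC106768266) had 425, 453 and 469 CPM in LT+S, against 1430.3, 1285 and 1138 CPM in CK, at -1.52. These 3 evening genes were above and these 2 morning genes below CK in every LT+S library. The hour of sampling of each library is not given in the sources used here.

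Cold and dehydration genes were higher in 11 and lower in 5 of 39 cases (20 and 3 with library totals alone), with 7 higher without LT+S 1 and 5 without CK 2. The low-temperature-induced 65 kDa protein (LOC106771455), an abscisic acid-responsive protein of Arabidopsis, had 126, 121 and 38 CPM in LT+S, against 7.66, 4.11 and 0.458 CPM in CK, and was named after its values were seen. Cold-regulated 413 genes (LOC106756614 and LOC106767516), likewise, were at 0.56 and 0.81. Oxidative stress enzymes were lower in 40 of 79 cases and higher in 9 (31 and 17 with library totals alone), with 5 higher without CK 2. The higher genes included the chloroplast thioredoxin M3 (LOC106766942) at 1.56, and the lower genes included thioredoxin X (LOC106771012) at -2.18. Class III peroxidases, secreted enzymes that use peroxide in the cell wall, were higher in 7 and lower in 5 of 34 cases, with 3 higher without LT+S 2 or CK 2, 4 higher without LT+S 3 or CK 1, 2 lower without LT+S 2 or LT+S 3 and 3 lower without CK 2 or CK 3 (12 higher and 4 lower with library totals alone). They took 0.143, 0.203 and 0.245% of all counts in LT+S, against 0.0261, 0.0447 and 0.0653% in CK. Among them peroxidase 12 (LOC106769628) had 774, 1039.5 and 1349.8 CPM in LT+S, against 24.9, 40.5 and 60.8 CPM in CK (log2 fold change 4.65 with an SE of 0.47, edgeR adjusted p = 0.000176).

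Aquaporins of the plasma membrane moved in opposite directions. PIP2-7 (LOC106759297) had 1025, 1269 and 1095 CPM in LT+S, against 81.8, 84.7 and 94.2 CPM in CK (log2 fold change 3.70 with an SE of 0.23, edgeR adjusted p = 3.31e-05). PIP-type 7a (LOC106757770) had 57.6, 53.5 and 38.4 CPM in LT+S, against 741, 693 and 720.3 CPM in CK (log2 fold change -3.85 with an SE of 0.41, edgeR adjusted p = 0.00023). The first was higher and the second lower in every LT+S library, and of 31 aquaporins 5 were higher and 9 lower (10 and 9 with library totals alone). In the cell wall, a xyloglucan endotransglucosylase/hydrolase (LOC106762408), which rejoins wall polymers during growth, had 2.01, 0.717 and 0.628 CPM in LT+S, against 29.9, 66 and 101 CPM in CK (log2 fold change -5.87 with an SE of 0.60, edgeR adjusted p = 0.000192). Wall expansion genes were higher in 21 and lower in 15 of 102 cases (35 and 10 with library totals alone), with 25 lower without CK 1. Cell cycle and histone genes were higher in 36 and lower in 11 of 177 cases, with 7 lower without CK 2 (103 higher and 4 lower with library totals alone). The higher share, 20.3%, was near the 19.7% of all genes tested, and the lower share was 6.21%, against 21.9%. Cyclin-A1-1 (LOC106764116), a regulator of division, was among the lower genes with 0.0855, 0.0843 and 0.0418 CPM in LT+S, against 5.81, 5.48 and 7.46 CPM in CK.

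Markers of other tissues were set beside these groups. Vascular and secondary wall genes summed to 829 to 927 CPM in LT+S and to 343, 917 and 1452 CPM in CK, and 5 were higher and 5 lower of 74 (12 and 3 with library totals alone). The lower count was 12 without LT+S 1, 10 without CK 1, 3 without LT+S 2 and 2 without CK 2, the higher count was 8 without CK 3 and 3 without CK 2, and the median ran from -0.60 without CK 1 to 0.64 without CK 3. The median member was 1.92 higher in CK 3 than in CK 1 on the log2 scale, the pots at the ends of the second principal component. Within CK, the desaturase list also had a median 0.96 higher in CK 3 than in CK 1. Flower and pollen markers were nearly absent, with 11 of 15 under 10 counts in all 6 libraries, and summed to 26.2 to 30.4 CPM in LT+S and 10.5 to 16.2 CPM in CK. Guard cell markers summed to 95.7 to 129 CPM in LT+S and 64 to 99.2 CPM in CK. Root and nodule markers summed to 442 to 513 CPM in LT+S and 702 to 953 CPM in CK, and 12 of 50 had no count. The part of these tissues in the results was not tested.

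Chloroplast positioning and glycerol phosphate genes were also followed by the study. Its PCR result for CHUP1 in mung bean was an increase with uniconazole. The values here are LT+S against CK, a contrast that holds the cold and the place as well, so they do not bear on that result. Of 12 genes for CHUP1, which anchors chloroplasts to actin, 3 were called, all higher: LOC106753601 at 3.53, LOC106773068 at 1.88, and LOC106778336, which had 6.71, 14 and 13.1 CPM in LT+S, against 1.63, 2.86 and 5.24 CPM in CK. Over all genes tested 19.7% were higher, so 3 of 12 is near the background. Which of these genes the study's primers amplify was not checked. LOC106778336 was not called without LT+S 2, LT+S 3 or CK 2 (edgeR adjusted p = 0.0547 to 0.0682). The CHUP1 gene with the highest CPM (LOC106776886) had 934, 1046 and 1091 CPM in LT+S, against 1419, 1151 and 889 CPM in CK, and its groups overlapped. Among glycerol-3-phosphate dehydrogenase genes, LOC106765284 and LOC106752574 were higher, at 2.96 and 1.22, and LOC106778395 and LOC106771481 were lower, at -1.47 and -0.90. The last of these was not called with library totals alone (log2 fold change -0.41, edgeR adjusted p = 0.243), nor without LT+S 1, LT+S 2, CK 1 or CK 2 (edgeR adjusted p = 0.0632 to 0.105).

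The LT libraries gave the same contrast without the compound. LT against CK had 4394 higher (22.8%) and 4573 lower (23.7%) genes, and both comparisons use the same CK libraries. The antenna median was -2.46 in LT+S and -3.36 in LT, the photosystem median -1.94 in LT+S and -2.34 in LT, and the Calvin cycle median -1.46 in LT+S and -1.60 in LT, each against CK. Photorespiration genes were lower in 8 cases in LT+S and 10 in LT. Tested directly, LT+S against LT had 2 higher genes (0.0104%) and 1 lower gene (0.00518%), 0.0155% in all and each over 2-fold, at an adjusted p below 0.05 in edgeR. Before adjustment, p was below 0.05 for 720 higher and 644 lower genes, and DESeq2 over the 9 libraries called 121 higher and 107 lower.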

How the data were processed

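Leaf RNA from 3 pots of each group was sequenced. The deposited values are raw, unnormalized read counts per gene, which the authors obtained with Trimmomatic, with HISAT2 on the Vradiata_ver6 genome and with htseq-count. Their methods mention bowtie2 and eXpress too, and the submitters' notes CASAVA 1.8 and Cufflinks. Strand and multi-mapping settings are not given in the sources used here, so that counts of near-identical copies, overlapping genes and antisense partners are uncertain. The file pairs 20862 genes with a description and 5046 with a pathway. Positions are from the RefSeq gene table, which held 26961 of 26966 identifiers.

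The analysis used edgeR 4.0.16 in R 4.3.3: filterByExpr kept 19304 genes (3736 had no count in any library), libraries were scaled by TMM (factors 1.10 to 1.14 in LT+S and 0.781 to 0.804 in CK), and glmQLFit and glmQLFTest were run on all 9 libraries with group as the only term. P values were adjusted over all genes by the Benjamini-Hochberg method, with 0.05 as the threshold. Gene lists (60) were matched to descriptions, and their patterns were adapted to the wording of the descriptions. Lists, pathways and named genes were chosen with earlier results of these data known. Lists are described by counts and medians, with no set test.

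Genes named were the 3 described members of each list with the smallest p, in each direction the 12 described genes of largest fold change (called, not overlapping between LT+S and CK libraries, and averaging 5 CPM or more in the higher group), the uniconazole target families, genes followed by the study, the 10 genes of highest CPM in each group, described genes with 0 counts in 1 group (5 per direction) and list genes called in LT+S against LT. Pathway examples and others stated in the text were chosen with their values in view. Folds against 0 counts are lower bounds at 3 counts per library. Shares of counts were compared with a 2-sided exact permutation test over libraries.

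In counts simulated for LT+S against CK, with 19159 genes tested, edgeR recovered 2.99% of 1.5-fold, 40.3% of 2-fold and 90.9% of 4-fold changes and called 1 unchanged gene. DESeq2 recovered 23.9, 71.6 and 95.5% of these changes and called 40 unchanged genes. Only 66 or 67 genes were changed at each fold, against 8042 genes called in the data, so these rates do not describe this comparison. Alternatives were DESeq2 1.42.0, DESeq2 size factors, library totals alone, limma-voom (limma 3.58.1), the 2 groups alone, a filter at a mean of 1 CPM or none, the replicate number as a block and each library left out. Python 3.11.15 with matplotlib 3.10.9 drew the figures. No library was a copy of another.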

Additional observations from a re-analysis of the deposited data

Results flagged for a closer look

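In all, 3 genes of the lists differed between LT+S and LT at an adjusted p below 0.05 in edgeR, so that their changes against CK differed between the sprayed and the unsprayed cold plants. The tryptophan aminotransferase-related protein 4 gene LOC106755073, of a family related to auxin synthesis enzymes, had 66.7, 103 and 58.3 CPM in LT+S, 9.79, 11.6 and 9.25 CPM in LT and 45.4, 47.2 and 62.2 CPM in CK. Its log2 fold change of LT+S over LT was 2.90, and it was not called in LT+S against CK (log2 fold change 0.56 with an SE of 0.22, edgeR adjusted p = 0.068). The second gene of that name, LOC106765714, had 35.4, 47.8 and 26.2 CPM in LT+S, 5.46, 5.37 and 6.23 CPM in LT and 33.2, 35.3 and 43.1 CPM in CK, and its log2 fold change of LT+S over LT was 2.68. Against CK it was at -0.03 (adjusted p = 0.924, edgeR). CAULIFLOWER (LOC106758858), a MADS-box factor of floral identity, had 6.63, 6.62 and 5.61 CPM in LT+S, 18.5, 23.2 and 19.9 CPM in LT and 5.81, 4.94 and 5.24 CPM in CK, and was at -1.71 in LT+S over LT. In all 3 genes LT was the group that stood apart, and LT+S overlapped CK.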

How the results depend on the processing

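With library totals alone in place of TMM, LT+S against CK gave 8979 higher and 1997 lower genes, 4140 higher and 1082 lower over 2-fold, 100% of the higher and 47.2% of the lower calls were kept, and 1 gene was called in the opposite direction. The other normalizations, tools and filters gave 3644 to 4212 higher and 4071 to 4537 lower genes. Without 1 library the counts ran from 2587 (without CK 2) to 3676 higher and 3299 to 4037 lower, and over 2-fold 1481 to 1845 higher and 1920 to 2242 lower. Over all calls, 67.3% (without CK 2) to 85.7% of the higher and 77.1 to 87.3% of the lower calls were kept without 1 library. Of the 278 named genes called, 255 were tested and called under all 15 alternatives, 15 lost their call under at least 1, 8 others lacked a test under at least 1, and 0 were reversed. Most named genes were chosen by small p or large change in this contrast, so their stability does not describe the other calls.

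LT+S against LT had 2 higher and 1 lower gene in edgeR. DESeq2 gave 121 higher and 107 lower over 9 libraries and 182 higher and 157 lower over the 6 libraries, while edgeR over these 6 gave 0 higher and 0 lower. Without 1 library there were 0 to 4 higher and 0 to 3 lower. The cause was not tested.

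The replicate numbers were not taken as pairs in the main fit. Deviations of LT+S and CK libraries with the same number correlated at 0.267, 0.077 and 0.155, but LT+S 2 correlated best with CK 3 (0.168). For LT+S and LT libraries with the same number the values were -0.296, -0.094 and -0.278. Whether the pots were paired cannot be told from these values. With the replicate block, LT+S against CK gave 3306 higher and 3694 lower genes (1766 and 1996 over 2-fold, with 4 named genes no longer called), and LT+S against LT gave 4 higher and 2 lower. The median size of the log2 fold change among called genes was 0.99, so the calls included many changes under 2-fold. With 3 pots a group smaller changes can be missed, and how often was not measured.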

Other observations

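Some further groups held large changes in few members. Pathogenesis-related genes were higher in 11 and lower in 19 of 88 cases (26 and 17 with library totals alone). Pathogenesis-related protein 2 (LOC106773636) had 0.171, 0.379 and 0.126 CPM in LT+S, against 15.2, 13.1 and 13.9 CPM in CK, and an acidic glucan endo-1,3-beta-glucosidase (LOC106778437), of an enzyme class that attacks fungal walls, had 1.2, 1.64 and 1.84 CPM in LT+S, against 31.9, 25.1 and 19.7 CPM in CK. Both were lower in every LT+S library, at -5.93 and -4.03 on the log2 scale. Cysteine-rich receptor kinases were higher in 8 and lower in 14 of 46 cases (14 and 6 with library totals alone). The higher count was 5 without LT+S 2, CK 1 or CK 3 and 3 without LT+S 3 or CK 2. Among flavonoid genes, 14 were higher and 17 were lower of 71 (25 and 14 with library totals alone), and chalcone isomerase (LOC106771799), the second step of the pathway, had 50.7, 58.8 and 101 CPM in LT+S, against 11.8, 10.6 and 11.7 CPM in CK. That gene was higher in every LT+S library, at 2.62.

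Pathways of the file outside the lists included 2 further groups given here. Homologous recombination genes, which repair broken DNA, were higher in 19 and lower in 2 of 46 cases (36 and 1 with library totals alone), with 12 higher without CK 2. The helicase LOC106759660, of the RecQ type that unwinds repair intermediates, had 15.6, 14.7 and 15.7 CPM in LT+S, against 7.9, 7.08 and 7.86 CPM in CK and was at 1.01. Sphingolipid genes, whose products are membrane lipids and signals, were higher in 9 and lower in 3 of 23 cases (14 and 1 with library totals alone), and sphingosine-1-phosphate lyase (LOC106759382), which breaks down the long-chain base, was at 0.98. The pathways, the helicase and the lyase were named after their values were seen.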
